A study of Homo sapiens with 16 samples.

Results

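The miR-17-92 cluster is a group of microRNAs (miRNAs) cut from a single primary transcript, MIR17HG. Its members were taken by name from the array, counting both arms of its hairpins, which gave 10 of the 2565 human miRNA probes. The array study used OE19, an established cell line from human esophageal adenocarcinoma (EAC), a gland-forming cancer of the esophagus. Total RNA was taken from cells given 100 μM telmisartan, a blocker of the angiotensin II type 1 receptor, for 48 h and from control cells without telmisartan, and each of 8 telmisartan and 8 control samples was run on an array of its own. All 16 samples came from this 1 line, and the labels name no vehicle for the controls. The labels number the samples 1 to 8 in each group and do not say whether they were separate cultures, so a p-value here reflects nothing more than how far these samples scatter, and part of that scatter may be technical.

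MiRNAs are short RNAs that bind target mRNAs mainly through the seed, bases 2 to 8 from the 5′ end, and lower their translation or stability. The miR-17-92 cluster is activated by the transcription factor MYC and is amplified or raised in several cancers, where it is known as oncomiR-1. Its guide arms fall into the miR-17, miR-18, miR-19 and miR-92 seed families. Known targets include the cell cycle inhibitor CDKN1A and the proapoptotic BCL2L11 for the miR-17 family.

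The 6 hairpins of the cluster lie on the plus strand within chr13:91350605-91351391 (RefSeq, GRCh38.p14), a stretch of 787 bases inside the MIR17HG host gene at chr13:91347687-91354577. All 10 members matched a RefSeq mature sequence. They are shown in the order of the transcript because the results below differ between seeds and between arms, with the seed in capitals.
hsa-miR-17-5p: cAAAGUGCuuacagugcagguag
hsa-miR-17-3p: aCUGCAGUgaaggcacuuguag
hsa-miR-18a-5p: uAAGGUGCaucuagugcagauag
hsa-miR-18a-3p: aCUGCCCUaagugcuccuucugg
hsa-miR-19a-3p: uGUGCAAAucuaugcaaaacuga
hsa-miR-20a-5p: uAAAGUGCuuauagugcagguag
hsa-miR-20a-3p: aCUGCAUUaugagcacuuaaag
hsa-miR-19b-3p: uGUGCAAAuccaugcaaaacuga
hsa-miR-92a-1-5p: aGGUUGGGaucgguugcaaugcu
hsa-miR-92a-3p: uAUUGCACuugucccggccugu

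MiR-17-5p and miR-20a-5p share the seed AAAGUGC and differ at 2 bases outside it, C1U and C12U, counted from the 5′ end with the base of miR-17-5p first. MiR-19a-3p and miR-19b-3p share GUGCAAA and differ at 1 base, U11C, with the base of miR-19a-3p first. The miR-18 seed AAGGUGC and the miR-92 seed AUUGCAC each occur once among the members. The seeds of the passenger arms miR-17-3p, miR-18a-3p, miR-20a-3p and miR-92a-1-5p were found in no other human miRNA of the RefSeq table. The mature sequences of miR-19b-3p and miR-92a-3p are also made from MIR19B2 and MIR92A2 in the miR-106a-363 cluster on the X chromosome, so these probes cannot assign their signal to either locus.

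The arrays were compared on the deposited normalized values, which cover the 382 probes detected above background on all 16 arrays. The number of probes detected on an array was between 454 and 1621 in control samples (median 804) and between 458 and 1885 in telmisartan samples (median 931). All 6 miRNAs listed for columnar epithelium (miR-200c-3p, miR-200b-3p, miR-141-3p, miR-192-5p, miR-194-5p and miR-215-5p) were detected on every array. Of the 5 miRNAs listed for blood and immune cells, 0 were detected on all arrays of either group, and miR-451a was detected on 7 of 8 arrays in each. Of the miRNAs listed for other cell types, miR-203a-3p (squamous epithelium) and miR-126-3p (endothelium) were detected on all 16 arrays. The other miRNA listed for squamous epithelium, miR-205-5p, was detected on 3 of 8 control and 5 of 8 telmisartan arrays. The other one listed for endothelium, miR-126-5p, was detected on 6 of 8 and 5 of 8. Those of muscle, fibroblasts and liver were detected on at most 4 of 8 arrays of a group. Arrays numbered 1 to 4 stood apart from those numbered 5 to 8, and this split touches the results below. The background was 27.7 ± 4.01 (SD, n = 4) in the first set of controls and 20.1 ± 3.73 in the other, against 29.7 ± 4.84 and 21.3 ± 1.88 in telmisartan samples. The labels name no batch for these numbers.

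Of the 10 members, 8 had a normalized value on every array. Of these 8, 5 were down-regulated by telmisartan and 0 were up-regulated (limma, Benjamini-Hochberg adjusted p under 0.05 over 382 probes). The 5 were miR-18a-5p, miR-19a-3p, miR-19b-3p, miR-17-3p and miR-18a-3p. Over all 382 probes, 7.33% fell and 9.69% rose. The estimate lay below 0 for all 8 members, with a median log2 change of -0.46, beside -0.01 over all probes. In bulk RNA, fewer cells that carry a miRNA and less of it per cell cannot be told apart. MiR-17-5p, miR-20a-5p and miR-92a-3p did not pass the test.

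**Figure D1:**
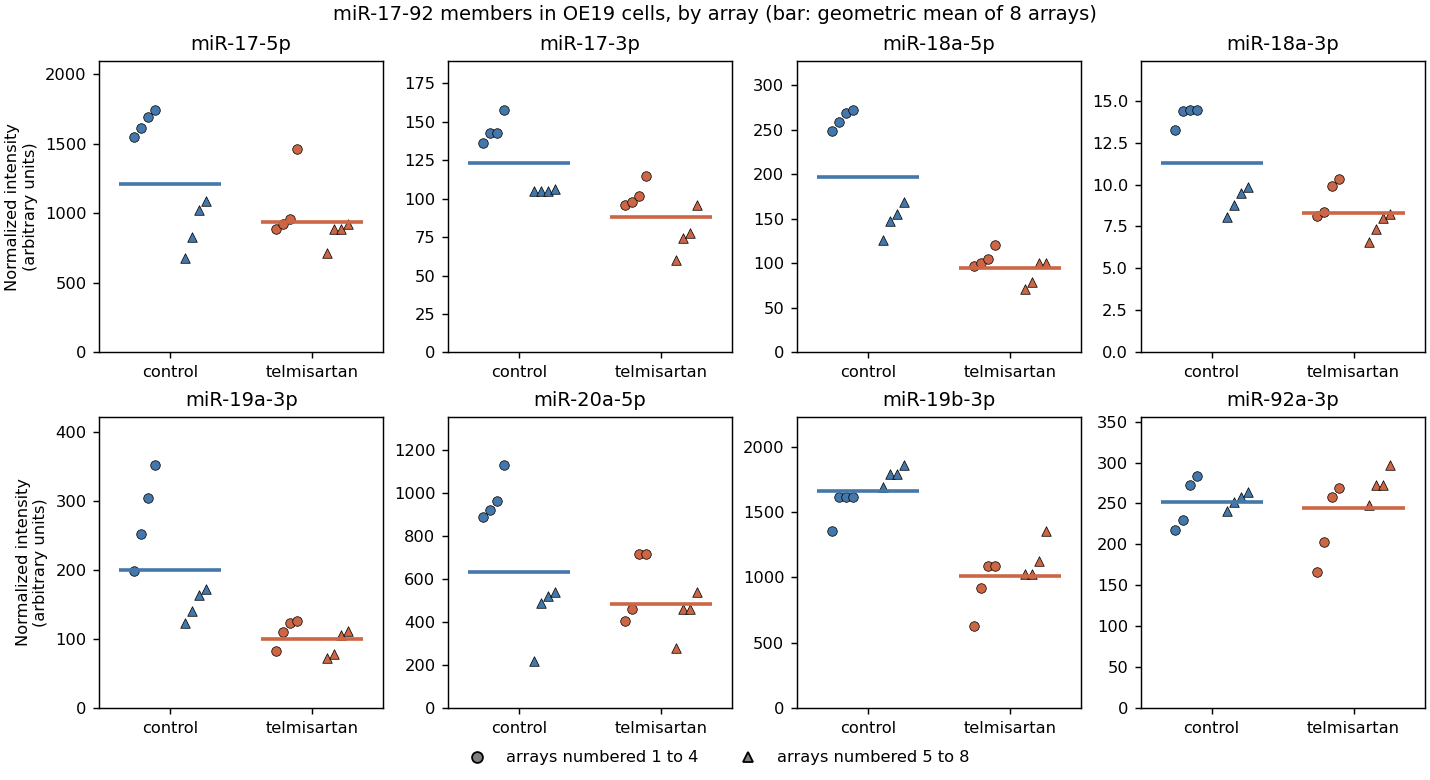
Normalized intensity (arbitrary units, linear axis from 0) of the 8 members with a value on every array, for control and telmisartan samples. Each point is an array, circles are arrays numbered 1 to 4, triangles those numbered 5 to 8, and the bar is the geometric mean of 8 arrays. The groups do not overlap for miR-18a-5p, and control arrays 1 to 4 lie above control arrays 5 to 8 for miR-17-5p, miR-17-3p, miR-18a-5p, miR-18a-3p, miR-19a-3p and miR-20a-5p.

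Of the 8 members, miR-18a-5p (hsa-miR-18a-5p on the array), the miR-18 family guide of the cluster, had the largest change. Its normalized intensity in control samples was 126 at the lowest, 208.7 at the median and 272 at the highest, and in telmisartan samples 70.6, 100.0 and 120. Every telmisartan array lay below every control array, a separation that 1.31% of all probes showed in this direction. The level after telmisartan was 0.483 times that in control (log2 change -1.05 ± 0.175 SE, n = 8 and 8, limma adjusted p = 0.000869). The fall was present among arrays 1 to 4 (0.402 times, adjusted p = 3.9e-05) and among arrays 5 to 8 (0.582 times, adjusted p = 0.0104). The change was smaller in arrays 5 to 8, by 0.53 ± 0.173 on the log2 scale (limma interaction adjusted p = 0.0313). In this fit miR-18a-5p was the only member with an interaction past the threshold, and 35.3% of all probes had one. The count of members was 6 with median scaling, 2 with the replicate block and 0 with quantile normalization over the probes each array detected. That call was lost when any of control arrays 4 or 7 or telmisartan arrays 2, 3 or 7 was left out, with 0 members past the threshold. The count was 2 without control array 3 or 8 or telmisartan array 1, and 3 without telmisartan array 4 or 6. For these other settings the share of all probes with an interaction was not counted. The counts of members there are therefore not read as particular to the cluster.

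The 2 miR-19 family guides both fell. MiR-19a-3p (hsa-miR-19a-3p) was at 123, 185 and 351 in control samples (lowest, median and highest normalized intensity) and at 73.1, 108 and 126 in telmisartan samples. Of the 8 telmisartan arrays, 6 lay below all controls. Its level was 0.496 times control (log2 change -1.01 ± 0.209, limma adjusted p = 0.00248), with 0.403 times in arrays 1 to 4 and 0.611 times in arrays 5 to 8 (adjusted p = 0.00233 and 0.0291).

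MiR-19b-3p (hsa-miR-19b-3p), which differs from miR-19a-3p by U11C, was at 1357, 1653 and 1856 in control samples and at 630, 1056 and 1357 in telmisartan samples. Of the 8 telmisartan arrays, 7 lay below all controls. Its level was 0.610 times control (log2 change -0.71 ± 0.123, limma adjusted p = 0.00106). It was 0.588 times in arrays 1 to 4 and 0.632 times in arrays 5 to 8 (adjusted p = 0.0115 and 0.00615), a difference not past the interaction test (adjusted p = 0.724). The lowest value, on telmisartan array 4, came from a spot that the scanner output marks as not good but that the normalized table includes. Without that spot the level was 0.653 times control (log2 change -0.62 ± 0.088, limma adjusted p = 0.000222).

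The miR-17 family guides, miR-17-5p and miR-20a-5p, did not pass the test over all arrays. MiR-17-5p was at 681, 1320 and 1747 in control samples and at 715, 905 and 1465 in telmisartan samples. The groups overlapped, with 0 of 8 telmisartan arrays below all controls. Of the 8 controls, 4 lay above all telmisartan arrays, those numbered 1 to 4. Its log2 change was -0.37 with a 95% interval from -0.79 to 0.05 (limma adjusted p = 0.254). Within arrays 1 to 4 it was at 0.628 times control (adjusted p = 0.0125) and within arrays 5 to 8 at 0.953 times (adjusted p = 0.749). The difference between these changes was 0.60 on the log2 scale and did not pass the interaction test (adjusted p = 0.0553).

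MiR-20a-5p had the widest spread of the 8 members in either group (SD of log2 values 0.780 and 0.440). It was at 217, 715 and 1128 in control samples and at 281, 463 and 715 in telmisartan samples. Its log2 change was -0.39 with a 95% interval from -1.02 to 0.25 (limma adjusted p = 0.482). Arrays 1 to 4 gave 0.573 times control (adjusted p = 0.0157) and arrays 5 to 8 gave 1.02 times (adjusted p = 0.963). The interaction was not past the threshold either (adjusted p = 0.106). The intervals of both miR-17 family guides hold 0 as well as sizeable falls, so the data do not show that they stayed at the control level.

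MiR-92a-3p, the last guide on the transcript, was at 217, 255 and 284 in control samples and at 166, 263 and 297 in telmisartan samples. The telmisartan samples spread more widely, with 2 of 8 arrays below all controls, and the groups overlapped. Its level was 0.973 times control, with a log2 change of -0.04 and a 95% interval from -0.27 to 0.19 (limma adjusted p = 0.915). The sign of this estimate turned with scaling to the array mean (0.14), with no scaling (0.18) and in arrays 5 to 8 alone (0.10), each without passing the test.

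Passenger arms are the strands usually discarded when a hairpin is loaded. MiR-17-3p was at 105, 121 and 158 in control samples and at 60.3, 95.7 and 115 in telmisartan samples, with 7 of 8 telmisartan arrays below all controls. Its level was 0.715 times control (log2 change -0.48 ± 0.137, limma adjusted p = 0.0227), and it was 0.707 times in arrays 1 to 4 and 0.723 times in arrays 5 to 8 (adjusted p = 0.00457 and 0.0390). MiR-18a-3p was dim, at 8.07, 11.5 and 14.5 in control samples and at 6.58, 8.20 and 10.3 in telmisartan samples. Of its 8 telmisartan arrays, 3 lay below all controls. Its level was 0.735 times control (log2 change -0.44 ± 0.144, limma adjusted p = 0.0418).

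The call for miR-18a-3p was the least steady of the 5. It was lost when any of control arrays 1, 2, 3 or 4 or telmisartan arrays 2, 3, 5, 6, 7 or 8 was left out, with adjusted p between 0.0652 and 0.0866, and under the Mann-Whitney test that the methods name, run in its exact form (adjusted p = 0.134). By that test 4 members fell, all of the 5 but miR-18a-3p, beside 6.02% of all probes. Its level was 0.648 times control in arrays 1 to 4 (limma adjusted p = 0.00298) and 0.834 times in arrays 5 to 8 (adjusted p = 0.0895). The call held with the array set as a block (adjusted p = 0.000897) and with the replicate block (adjusted p = 0.00563).

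The other passenger arms had no normalized value. MiR-20a-3p was detected on 8 of 8 control arrays, at 3.31 to 20.01 above background (median 9.93, intensity before normalization), and on 7 of 8 telmisartan arrays, at 5.03 to 11.6 (median 7.04). The 2 ranges overlapped. MiR-92a-1-5p was detected on 0 of 16 arrays, and it was therefore not detectable rather than shown to be absent. The remaining arms of the cluster were detected on few arrays, miR-19a-5p on 3 control and 0 telmisartan arrays and miR-19b-1-5p on 5 control and 3 telmisartan arrays.

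**Figure D2:**
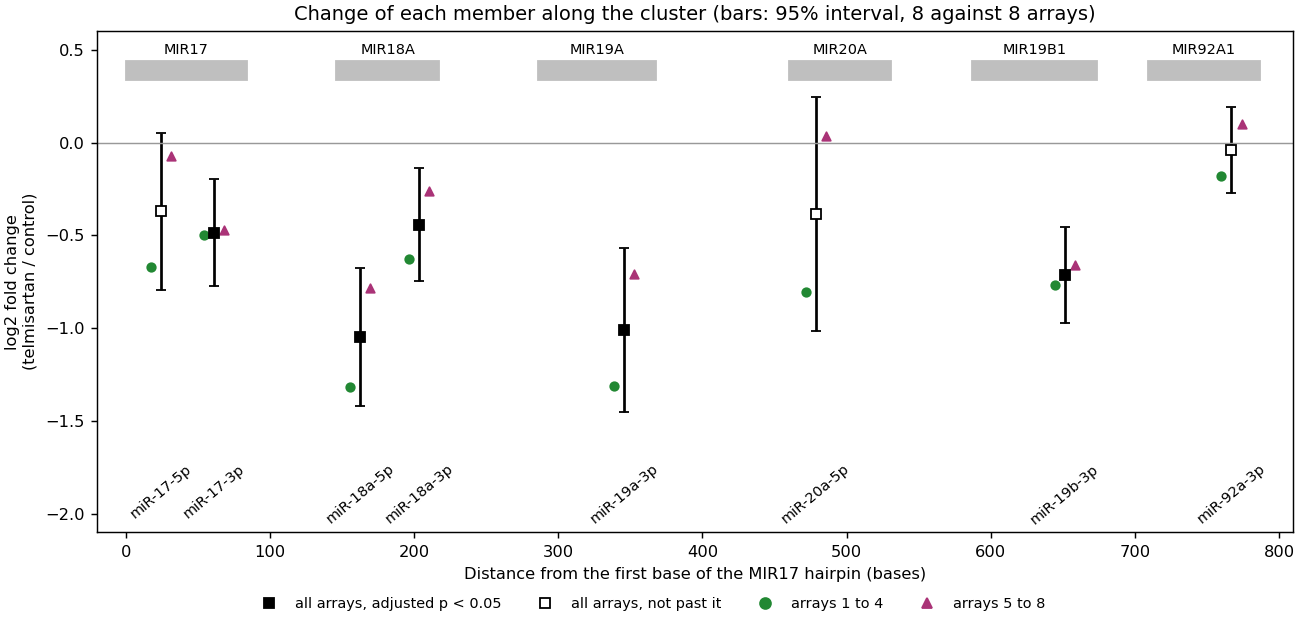
Log2 fold change (telmisartan over control) of each member against its distance in bases from the first base of the MIR17 hairpin, with the 6 hairpins drawn to scale as gray boxes. Squares are all arrays with 95% intervals (filled, limma adjusted p under 0.05), circles arrays 1 to 4 and triangles arrays 5 to 8. MiR-18a-5p (-1.05) and miR-19a-3p (-1.01) lie lowest, and miR-92a-3p (-0.04) lies at 0.

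The array sets differed most among the controls. In control samples alone, 6 of the 8 members were lower on arrays 5 to 8 than on arrays 1 to 4 (limma adjusted p under 0.05), beside 35.1% of all probes. MiR-20a-5p was at 889.8 to 1128 in the controls numbered 1 to 4 and at 217 to 539 in those numbered 5 to 8, a ratio of 0.427 (adjusted p = 0.00363). MiR-17-5p was at 1553 to 1747 in the former and at 681 to 1086 in the latter, a ratio of 0.541 (adjusted p = 0.000803). For both of these members the estimated difference between control sets was larger in size than that between treatments. The same held for miR-18a-3p, a member that fell, with log2 differences of -0.65 between control sets and -0.44 between treatments.

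For miR-18a-5p the corresponding ratio among controls was 0.568, with 248 to 272 on arrays 1 to 4 and 126 to 169 on arrays 5 to 8. MiR-19b-3p and miR-92a-3p did not show the split (ratios 1.15 and 1.02, adjusted p = 0.0564 and 0.844). Among telmisartan samples the sets gave adjusted p between 0.111 and 0.395 for the 8 members. Of all probes, 1.05% differed there.

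With the sets tested separately, 7 members fell in arrays 1 to 4, all but miR-92a-3p, where 18.3% of all probes fell. In arrays 5 to 8, 4 fell, miR-17-3p, miR-18a-5p, miR-19a-3p and miR-19b-3p, beside 7.59% of all probes. The members' median log2 change was -0.72 in arrays 1 to 4 and -0.37 in arrays 5 to 8, against 0.03 and -0.07 over all probes. With the array set as a block in limma, the same 5 members as over all arrays passed the test, where 12.8% of all probes fell. With the sample number as a replicate block 5 members fell again, beside 9.95% of all probes.

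All members are encoded on a single transcript, and the change of each was next set against that of every other on the same array. The probes of miR-19b-3p and miR-92a-3p may also carry signal from the X chromosome. Differences that involve either need not lie within the transcript. The difference of log2 values of 2 probes on an array does not depend on a constant scaling of that array. The deposited values are quantile normalized, which is not a constant scaling. Among 28 pairs, 11 differed in their change (two-sided exact permutation test over the 16 arrays, Benjamini-Hochberg over 28 pairs, smallest possible p 0.000155). MiR-18a-5p and miR-19a-3p were on the lower side of 10 of these pairs. With median scaling, mean scaling or no scaling in place of quantile normalization, 10 pairs differed.

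**Figure D3:**
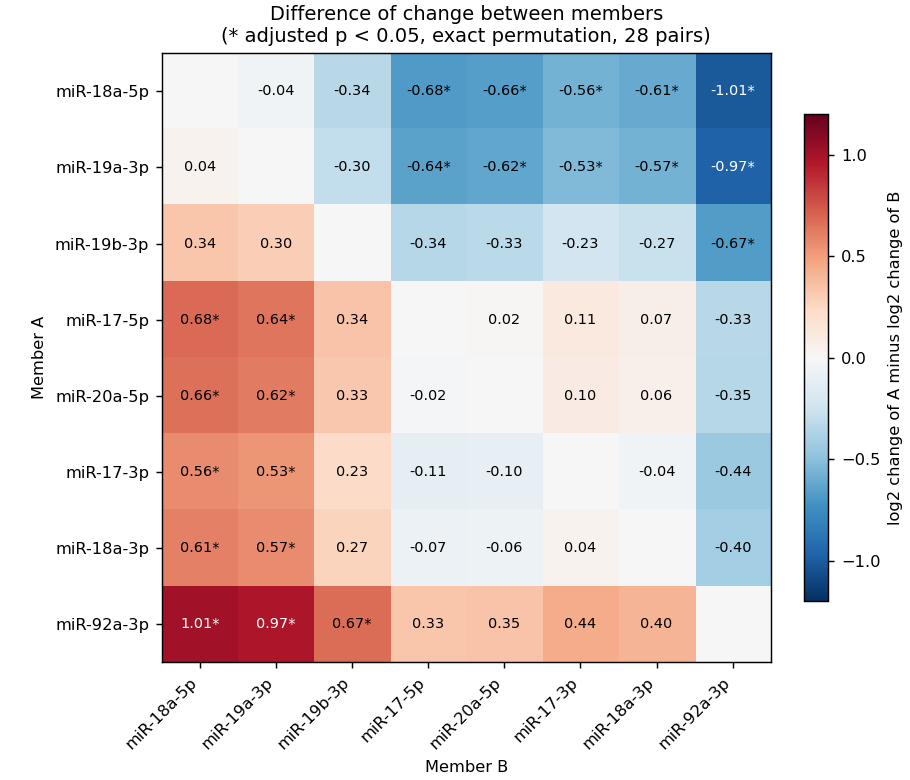
Difference between the log2 changes (telmisartan minus control) of member A (rows) and member B (columns). Blue means that A fell more than B, and an asterisk marks adjusted p under 0.05 in the exact permutation test over 28 pairs. MiR-18a-5p and miR-19a-3p differ from the same 5 members, and the largest difference is -1.01 (miR-18a-5p against miR-92a-3p).

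MiR-18a-5p fell by more than miR-17-5p, its neighbor on the transcript. The log2 change of miR-17-5p was higher by 0.68 (95% interval 0.51 to 0.85, exact permutation adjusted p = 0.00261), and this within-array difference had no overlap between the groups. It was 0.65 in arrays 1 to 4 and 0.71 in arrays 5 to 8. MiR-19a-3p likewise fell by more than miR-17-5p, by 0.64 (interval 0.33 to 0.94, exact permutation adjusted p = 0.00484), with 0.64 in either array set. Against miR-20a-5p, the other miR-17 family guide, the difference was -0.66 for miR-18a-5p and -0.63 for miR-19a-3p (exact permutation adjusted p = 0.00261 and 0.00484).

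MiR-92a-3p lagged behind 3 of the guides. The log2 change less that of miR-92a-3p was -0.67 for miR-19b-3p, -0.97 for miR-19a-3p and -1.01 for miR-18a-5p (exact permutation adjusted p = 0.00261, 0.00522 and 0.00484). The difference between miR-17-5p and miR-92a-3p was -0.33 (interval -0.89 to 0.24) and was not past the threshold (exact permutation adjusted p = 0.431).

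Members with the same seed did not differ beyond their spread. The changes of miR-17-5p and miR-20a-5p were 0.02 apart (interval -0.31 to 0.33, exact permutation adjusted p = 0.921). Those of miR-19a-3p and miR-19b-3p were -0.30 apart, with a wide interval from -0.91 to 0.33 (exact permutation adjusted p = 0.472). A difference as large as that between miR-18a-5p and miR-17-5p lies inside the second interval and outside the first. For these pairs of like sequence, signal of the one on the probe of the other was not tested.

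The arms of a hairpin were compared in the same way. The guide miR-18a-5p fell by 0.61 more on the log2 scale than its own passenger miR-18a-3p (change -0.61, interval -0.82 to -0.38, exact permutation adjusted p = 0.00261), with -0.69 in arrays 1 to 4 and -0.52 in arrays 5 to 8. MiR-18a-3p lies close to background, and the part of its low intensity in this difference was not tested. For the MIR17 hairpin the difference between arms was 0.11 (interval -0.19 to 0.43, exact permutation adjusted p = 0.566).

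The members moved together to an unequal degree over the 16 arrays. The 6 members other than miR-19b-3p and miR-92a-3p had Pearson r between 0.63 and 0.96 in their 15 pairs, the highest for miR-18a-5p with miR-19a-3p. MiR-19b-3p had r between -0.002 and 0.57 with these 6, and miR-92a-3p between -0.26 and 0.07. The points share the treatment and the array sets. After each array set of each treatment was centered on its mean, r among the 6 ran from -0.04 to 0.78, and miR-17-5p with miR-20a-5p was the closest pair (0.78). MiR-19b-3p then had r between -0.65 and 0.08 with the 6, and miR-92a-3p between -0.36 and 0.28.

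Among the 374 other probes, those whose log2 values followed the members' mean profile most closely over 16 arrays were miR-301a-3p (r = 0.96), miR-7-5p (0.95), miR-18b-5p (0.95), miR-141-3p (0.94) and miR-425-5p (0.94). These 5 each fell after telmisartan, by log2 changes between -1.24 and -0.54. The profile they were matched to carries the members' own fall, so the choice of probes favored probes that fell. After the same centering only miR-301a-3p stayed among the closest 5 (r = 0.87), behind miR-27a-3p (0.94), miR-374c-5p (0.90) and miR-28-5p (0.88). The log2 changes of miR-27a-3p, miR-374c-5p and miR-28-5p were 0.07, 0.004 and 0.41, and that of miR-181a-3p, ranked 5, was -0.23. None of these passed limma.

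The cluster has 2 paralogs that share seeds with it, miR-106a-363 on the X chromosome and miR-106b-25 on chromosome 7. The guides of miR-106b-25 carry the miR-17 and miR-92 seeds, without a miR-18 or miR-19 guide. Of 10 further miR-106a-363 products on the array, 3 had a normalized value and 1 fell. Of 6 miR-106b-25 products, 4 had a value and 3 fell, against 7.33% of all probes. The median log2 changes were -0.57 and -0.34. The count of paralogs that fell went from 4 to 2 when control array 1 or 8 or telmisartan array 5 or 6 was left out, and was 5 with the replicate block and 6 with the array set as a block. Of all probes, 9.95% fell with the replicate block and 12.8% with the array set as a block.

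MiR-18b-5p, the miR-18 family guide of miR-106a-363, differs from miR-18a-5p at 1 base (A20U, miR-18a-5p first). It is shown with miR-106a-5p and miR-25-3p, the paralogs nearest to miR-17-5p and miR-92a-3p in the comparisons that follow.
hsa-miR-18b-5p: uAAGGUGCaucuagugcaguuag
hsa-miR-106a-5p: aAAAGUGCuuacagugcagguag
hsa-miR-25-3p: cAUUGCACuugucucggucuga
MiR-18b-5p was at 76.6, 140.3 and 213 in control samples and at 49.0, 66.4 and 88.6 in telmisartan samples (lowest, median and highest). Its level was 0.386 times control in arrays 1 to 4 (limma adjusted p = 0.000898) and 0.598 times in arrays 5 to 8 (adjusted p = 0.0307). Over all arrays its log2 change was -1.06 ± 0.185 (limma adjusted p = 0.00106), 0.01 from that of miR-18a-5p (interval -0.24 to 0.26, exact permutation adjusted p = 0.975). With 1 base between them, signal of the one on the probe of the other was not tested.

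MiR-106a-5p, which differs from miR-17-5p by C1A, had a log2 change of -0.33 (limma adjusted p = 0.311), and miR-20b-5p one of -0.57 (adjusted p = 0.195). In arrays 1 to 4 they were at 0.665 and 0.530 times control (adjusted p = 0.0109 and 0.0126), and in arrays 5 to 8 at 0.954 and 0.862 times (adjusted p = 0.790 and 0.558). With the array set as a block miR-20b-5p passed the test (adjusted p = 0.0492). MiR-106a-5p differs from miR-17-5p at 1 base, and miR-20b-5p from miR-20a-5p at 2. Pearson r over the arrays was 0.97 and 0.96 for these pairs. Signal of the one on the probe of the other was not tested here either. The miR-106b-25 guides of the miR-17 family both fell. MiR-106b-5p was at 0.778 times control (limma adjusted p = 0.0275) and miR-93-5p at 0.831 times (adjusted p = 0.0296). MiR-106b-5p was at 0.886 times in arrays 1 to 4 (adjusted p = 0.354) and at 0.683 times in arrays 5 to 8 (adjusted p = 0.0101). Its interaction did not pass the test (adjusted p = 0.0899). By the exact Mann-Whitney test miR-93-5p passed (adjusted p = 0.0440) and miR-106b-5p did not (adjusted p = 0.062). MiR-93-5p passed in neither array set alone, at 0.841 times control in arrays 1 to 4 and 0.822 times in arrays 5 to 8 (limma adjusted p = 0.0501 and 0.0858). MiR-106b-3p, a passenger arm, had a log2 change of -0.43 (adjusted p = 0.0812), and passed with the replicate block (adjusted p = 0.0250) and with the array set as a block (adjusted p = 0.0221).

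MiR-25-3p, the miR-92 family guide of miR-106b-25, was at 405, 446 and 498 in control samples and at 329, 358 and 372 in telmisartan samples, without overlap. Its level was 0.800 times control (log2 change -0.32 ± 0.057, limma adjusted p = 0.00106). The change of miR-92a-3p was 0.28 above it (interval 0.02 to 0.52). That difference had p = 0.0359 in the exact permutation test and did not pass after adjustment over 6 pairs of members and paralogs (adjusted p = 0.173). The other 5 pairs had adjusted p between 0.173 and 0.975.

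Counted over every human miRNA with the seed, AAAGUGC was carried by 8 miRNAs, of which 6 had a normalized value and 2 fell, with a median log2 change of -0.37, where 7.33% of all 382 probes fell. AAGGUGC was carried by 3, of which 2 had a value and both fell (median -1.05). GUGCAAA was carried by the 2 miR-19 members alone (median -0.86). AUUGCAC was carried by 6, of which 3 had a value and 1 fell (median -0.04).

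**Figure D4:**
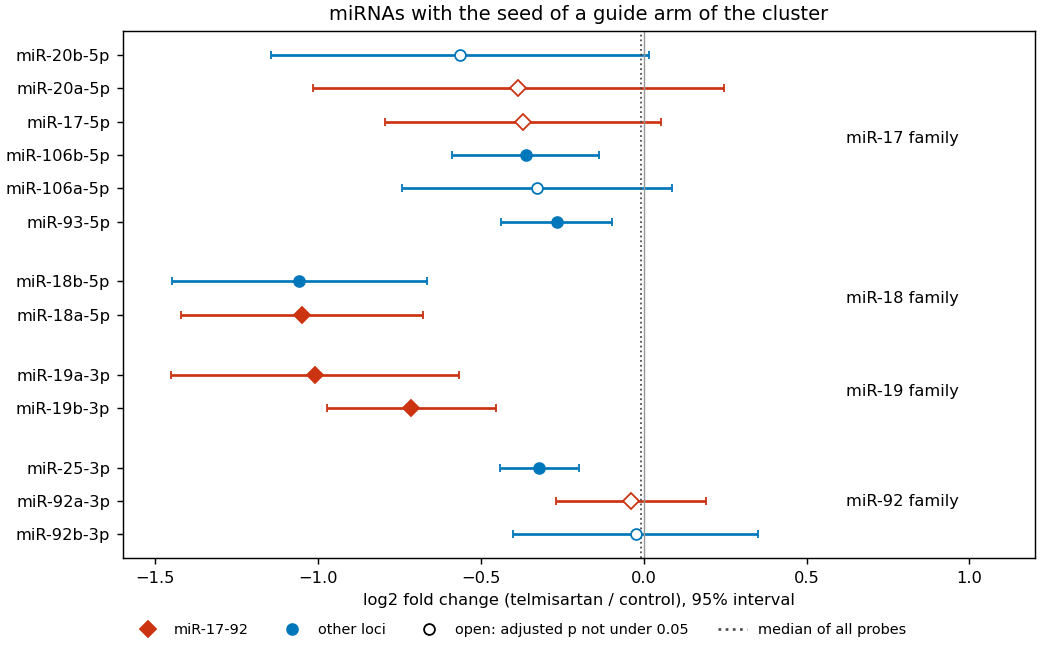
Log2 fold change (telmisartan over control) with 95% intervals for the miRNAs that carry the seed of a guide arm of the cluster and have a normalized value, 8 against 8 arrays. Diamonds are miR-17-92 members, circles miRNAs of other loci, filled symbols passed limma at adjusted p under 0.05, and the dotted line is the median of all probes (-0.01). MiR-18a-5p and miR-18b-5p lie together at -1.05 and -1.06.

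The calls depended on the processing. When each array was quantile normalized over all the probes it detected, 646 probes were tested, with 8.57% of their values at the floor set for undetected spots. Of these probes, 0 passed limma at adjusted p under 0.05 and 7 (1.08%) had an unadjusted p under 0.05, with 0 members among them. The median log2 change of all probes was then 0.23 and that of the 9 members tested -0.28. The changes of miR-18a-5p, miR-19a-3p and miR-19b-3p were -0.87, -0.88 and -0.55 there, or -1.10, -1.11 and -0.78 relative to the median of all probes. The SE for miR-18a-5p was 0.525, against 0.175 on the deposited values. The comparison of pairs, run on those values, again gave 11 pairs that differed.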

How the data were processed

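RNA was labelled and hybridized to human miRNA oligo chips, 1 array per sample. The authors deposited the scanner's intensity per probe and a table of normalized intensity for 382 probes. Per the paper's methods, that table was quantile normalized over values above background. Redoing this on the deposited intensity of the probes detected on all 16 arrays returned it. Detected means above the mean plus 2 SD of blank spots (320 per array, with 5% trimmed at each end). Normalized intensity was put on the log2 scale and tested with limma 3.58.1 in R 4.3.3, 8 against 8 arrays with no covariate, Benjamini-Hochberg over 382 probes. Pairs of members were compared by a two-sided exact permutation test (12870 splits), with 95% intervals from inverting it. Scripts were tested on simulated data. Precision is limited by how many arrays were run. The named miRNAs are the members, their paralogs, miRNAs of the same seed and the 5 closest profiles. The members and lists were chosen with earlier results of these data known.

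Samples are numbered 1 to 8 in both groups. As a check of whether the numbers pair the samples, the deviations of same-numbered arrays from their group means were correlated. All 8 correlations were over 0.1 (0.15 to 0.86). Same-numbered arrays also lie in the same array set, and centering on group means leaves that split in. These values therefore cannot tell whether the numbers pair the samples. The check rests on the data alone. The numbers entered only as a replicate block tried beside the tests above, which did not use them. Within array sets 5 of 8 were over 0.1, the others between -0.46 and 0.04, and 2 of 8 controls matched their own number best.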

Additional observations from a re-analysis of the deposited data

Results flagged for a closer look

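Of 16 sets of 8 values (8 members in each of 2 groups), 2 held an array far from the other 7 by Dixon's ratio of gap to range at the 95% level. Chance flags about 1 in 20 such sets. MiR-17-5p on telmisartan array 4 had a ratio of 0.586, with a log2 normalized intensity of 10.52 where the other telmisartan arrays lay between 9.48 and 9.91. MiR-19b-3p on control array 1 had a ratio of 0.554, with 10.41 where the other control arrays lay between 10.66 and 10.86.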

How the results depend on the processing

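Of the 5 members that fell, 0 passed with quantile normalization over the probes each array detected, 3 with median scaling and 3 with no scaling, and 4 to 5 when an array was left out. The 2 members lost with median scaling had log2 changes of -0.54 (miR-17-3p) and -0.43 (miR-18a-3p), and with no scaling -0.36 and -0.24, or -0.54 and -0.42 relative to the median of all probes. MiR-18a-5p, miR-19a-3p and miR-19b-3p each passed in 11 of 12 other settings, miR-17-3p in 9, miR-18a-3p in 5, and miR-17-5p and miR-20a-5p in 1. The median of all probes moved to 0.23 with quantile normalization over detected probes, to 0.14 with mean scaling and to 0.18 with no scaling. The 4 paralogs that fell became 0, 1, 2 and 1 with quantile normalization over detected probes, median scaling, mean scaling and no scaling, and 2 to 5 when an array was left out. The 9 miRNAs of the seed families that fell became 0 over detected probes, 4 with median scaling and 4 with no scaling, and 6 to 10 when an array was left out. The 1 interaction became 0 over detected probes, 6 with median scaling, and 2 with normexp, with quantile normalization over all probes (added after seeing the data), with the dimmest 25% of probes left out and with an intensity trend, and it was 0 to 3 when an array was left out. The share of all probes with an interaction was not counted in these settings. The 11 pairs became 10 with median scaling, with mean scaling and with no scaling. They became 0 in arrays 1 to 4 and 0 in arrays 5 to 8 alone, where the smallest p is 0.0286, and were 11 to 13 when an array was left out. With the replicate block 5 members fell, 14 pairs and 2 interactions passed, and the block changed no call of a member's fall. MiR-20a-5p turned to 0.033 in arrays 5 to 8 alone. MiR-92a-3p turned to 0.15 over detected probes, 0.14 with mean scaling, 0.18 with no scaling, 0.10 in arrays 5 to 8 alone, and it ran from -0.080 to 0.040 when an array was left out, the highest without telmisartan array 4. The causes were not tested. Dim probes such as miR-18a-3p limit what could be seen near background.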
